A study of Mus musculus with 6 samples.

Results

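The genes described here are the mouse potassium channel genes with a symbol that starts with Kcn, measured by RNA sequencing in hearts of Elac2 knockout and control mice. Elac2 encodes a nuclease that processes tRNA precursors. The members are the protein-coding genes of the count tables whose symbol is Kcn followed by a further family letter. Of 51888 rows, 94 were such genes. Of these, 46 had at least 30 counts summed over the 6 libraries and are reported; 32 had 1 to 29 counts and 16 had none. Kcne1l, with 30 counts, lay just inside that minimum. A low-count filter left 36 members for testing.

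The knockout group was 3 mice titled L/L, cre and labelled Elac2 -/-, and the control group was 3 mice titled L/L and labelled Elac2 +/+. In the knockouts a loxP-flanked exon of Elac2 was removed by cre driven by the muscle creatine kinase promoter, which is active in cardiac and skeletal muscle cells. By their titles both groups carry L/L, and cre is named for the knockouts and not for the controls, so cre and the loss of Elac2 cannot be told apart. All mice were on a C57BL/6 background, the RNA was total RNA of whole hearts, and neither age nor sex is given in the labels. Fibroblasts, endothelial cells and other non-muscle cells of the heart, in which that promoter is not known to act, were part of the RNA.

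Potassium channels let potassium leave a cardiomyocyte and so shape repolarisation and the resting potential. Voltage-gated alpha subunits, named Kcna, Kcnd, Kcnh and Kcnq among others, form the pores of the transient outward and delayed rectifier currents, while Kcne and Kcnip genes encode accessory subunits. Inward rectifiers, the Kcnj genes, hold the resting potential and respond to ATP or acetylcholine. Kcnk genes encode background channels with 2 pore domains per subunit, and Kcnn genes encode small-conductance channels opened by calcium. In the mouse heart the fast transient outward current depends on Kcnd2, Kcnd3 and the accessory subunit Kcnip2, and repolarisation relies on it more than in the human heart.

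The knockout libraries held 9850100 to 14461110 counts and the control libraries 12057962 to 14276410 counts. Mitochondrial-encoded features took 33.3 to 36.7% of counts in knockouts and 49.3 to 61.1% in controls. Levels are in CPM, the usual depth-scaled read count, here on library sizes scaled by TMM. Elac2 was at 5.36, 5.63 and 6.52 CPM in knockouts, against 15.05, 14.00 and 13.01 CPM in controls. All knockouts lay below all controls, though Elac2 reads remained in every knockout. The labels give the genotype and not the mRNA level. The cardiomyocyte markers were all detected in these hearts. They summed to 68379 to 69671 CPM in knockouts and 102469 to 104218 CPM in controls. Of the 10 markers tested, 5 were called lower, or 2 with library size alone and 2 without control 2 and knockout 2 together. Endothelial markers summed to 659 to 799 CPM in knockouts and 865 to 1022 CPM in controls, with 5 of 10 called lower, or 2 without control 2 or without knockout 2. Macrophage markers summed to 229 to 266 CPM in knockouts and 217 to 236 CPM in controls, with 1 of 10 called higher, and 1 of 7 erythroid markers was called higher, or 0 without any 1 of knockout 2, knockout 3, control 1 or control 2. For these and the marker lists below, the shares over all tested genes were 17.8% called lower and 18.7% called higher. The part of these cell types in the results below was not tested. Skeletal muscle markers of fast fibres, Myh1, Myh2 and Myh4, were at or near 0 in every library. The full list of 10 skeletal muscle markers summed to 643 to 1259 CPM in knockouts and 962 to 1074 CPM in controls. Without its most abundant gene it summed to 333 to 972 CPM in knockouts and 57.4 to 89.0 CPM in controls. Of its 2 tested markers, 1 was called higher, with a log2 fold change of 3.29, and 1 lower, with -1.80. Their part was not tested.

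The following sequences show the start of 4 members whose levels differed most clearly between the groups or that sit among the inward rectifiers compared below. Each is the 250 bases before the gene's start, written 5′ to 3′ on the gene's strand, from RefSeq in build GRCm38.p6. Capitals mark the GC box letters GGGCGG on either strand, a site type bound by Sp-family factors. The windows are chr15:79505242-79505491 (minus strand) for Kcnj4, chr11:111065914-111066163 (plus) for Kcnj2, chr19:45816064-45816313 (minus) for Kcnip2 and chr2:55435720-55435969 (plus) for Kcnj3. Bases that follow the window were found in an annotated transcript of the gene for Kcnj2, Kcnip2 and Kcnj3. For Kcnj4 they were not, so its placement rests on the annotated coordinates alone.
Kcnj4: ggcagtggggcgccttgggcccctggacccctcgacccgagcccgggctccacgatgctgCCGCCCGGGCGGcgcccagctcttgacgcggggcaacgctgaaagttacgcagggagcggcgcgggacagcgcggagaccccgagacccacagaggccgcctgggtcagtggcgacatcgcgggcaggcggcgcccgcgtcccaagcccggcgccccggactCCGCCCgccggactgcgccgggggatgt
Kcnj2: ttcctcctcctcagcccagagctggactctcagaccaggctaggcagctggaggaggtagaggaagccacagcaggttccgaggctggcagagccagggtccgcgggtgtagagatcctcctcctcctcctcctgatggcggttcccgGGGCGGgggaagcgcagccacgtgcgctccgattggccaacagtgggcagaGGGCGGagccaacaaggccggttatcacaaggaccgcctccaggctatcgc
Kcnip2: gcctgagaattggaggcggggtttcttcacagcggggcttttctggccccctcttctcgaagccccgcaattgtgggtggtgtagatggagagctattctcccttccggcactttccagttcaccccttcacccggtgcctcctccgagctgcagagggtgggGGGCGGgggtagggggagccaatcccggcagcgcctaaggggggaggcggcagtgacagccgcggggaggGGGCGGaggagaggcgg
Kcnj3: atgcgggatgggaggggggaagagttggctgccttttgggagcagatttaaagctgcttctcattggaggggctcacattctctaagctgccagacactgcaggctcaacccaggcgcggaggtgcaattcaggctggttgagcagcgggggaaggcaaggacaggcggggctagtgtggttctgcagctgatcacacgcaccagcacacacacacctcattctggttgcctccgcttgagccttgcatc
The window of Kcnj4 holds 3 matches and is 77.2% G and C, those of Kcnj2 and Kcnip2 hold 2 each at 65.6% and 66.8%, and that of Kcnj3 holds none at 58.4%. The median over all 32851 RefSeq windows was 52.4% G and C, and that over the 47 windows found for 33 of the 46 members was 58.8%. The GC box occurred in 38.3% of the members' windows and in 32.7% of all windows. The TATA box letters TATAAA occurred in 12.4% of all windows and in 0 of the members' 47. Over both strands the letters CCAAT stood in 34.0% of the members' windows against 33.8% of all windows, CACGTG in 8.5% against 6.0%, and TGATGNAA, the core of the amino acid response element, in 2.1% against 3.5%. The letters AGATAA, bound by GATA factors, stood in 1 of the members' 47 windows and in 3281 of all 32851. These are matches of letters and not measured binding.

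Related members share part of their coding sequence, which bears on whether reads can be assigned. The stretches below, of 51 coding bases each from GENCODE M21 transcripts, span the selectivity filter, the part of the pore that passes potassium. Capitals mark its 15 bases, which encode the signature with glycine, tyrosine and glycine.
Kcnj4: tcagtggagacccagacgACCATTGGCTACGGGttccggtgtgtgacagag
Kcnj2: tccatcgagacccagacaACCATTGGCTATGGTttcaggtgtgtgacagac
Kcnd2: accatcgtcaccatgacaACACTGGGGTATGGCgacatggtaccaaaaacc
Kcnj4 and Kcnj2 differ at 2 bases within the capitals and at 8 of all 51 bases, and their aligned coding bases were 69.9% identical. No other annotated transcript matched Kcnj4, Kcnj2, Kcnj12, Kcnd2 or Kcnip2 at 95% identity over at least 100 bases. Other members had such matches, among them Kcnn1 with Ap1g1 (102 bases, 4440 counts) and Kcnk6 with Adprh (117 bases, 1009 counts). None of the matches found was between members. Kcnh7 overlaps Gca on the other strand over 696 bases, with 545 counts for Gca against 68 for Kcnh7.

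More potassium channel genes were lower than higher in the knockout hearts. Of the 36 tested members, 16 were called lower (44.4%), 2 were called higher (5.56%) and 18 were not called, at an adjusted p under 0.05 with edgeR's quasi-likelihood test. Over all 14302 tested genes, 17.8% were called lower, 18.7% higher and 36.5% in either direction. The members' median log2 fold change was -0.45, against -0.01 for all tested genes. In 19 tested members the groups did not overlap, 18 of them lower and 1 higher in knockouts. Over all tested genes 50.6% did not overlap, 24.5% being lower and 26.2% higher. With library size alone, the mitochondrial-encoded counts stay in the scale. The median of all genes then moved to 0.68 and that of the members to 0.23. In that setting 10 of the 36 members were called lower and 11 higher, against 552 lower and 8093 higher of all 14302 genes. A direction given below is thus one against the typical tested gene, as TMM sets it. In whole hearts, fewer cells of a type and less RNA per cell cannot be told apart.

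**Figure D1:**
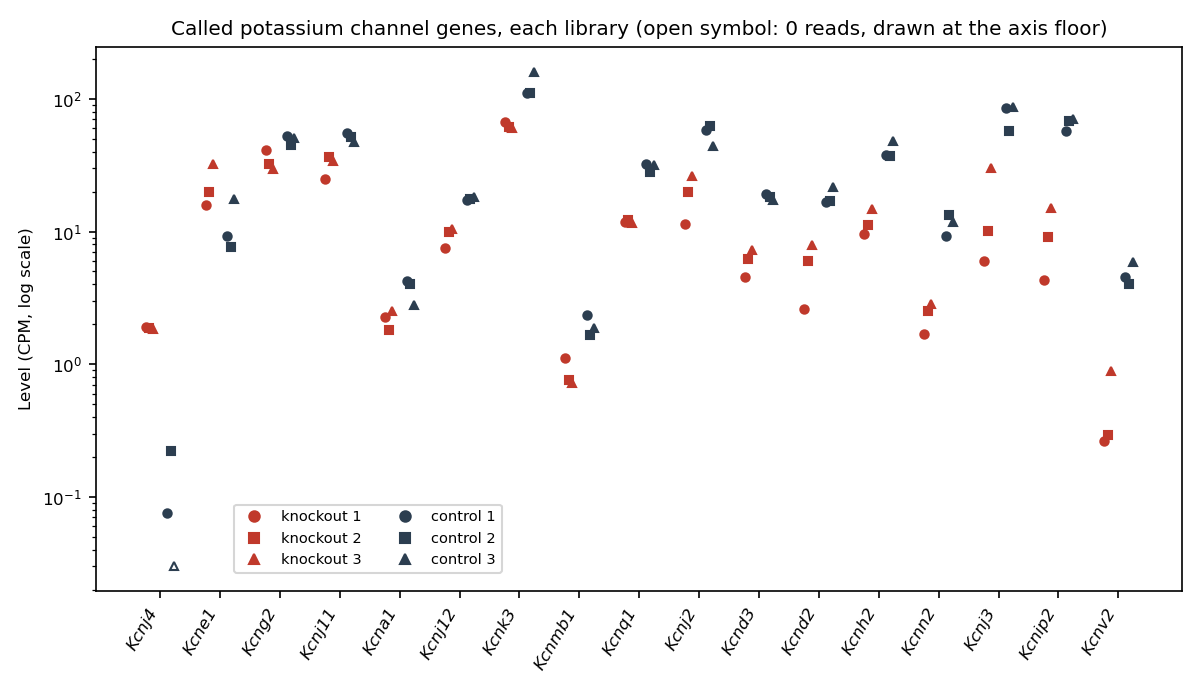
Levels of 17 called potassium channel genes in each library, in CPM on a log axis, knockouts left of controls for each gene; an open symbol stands for 0 reads. The knockout libraries lie below all controls in the 15 genes drawn that were called lower, above all controls for Kcnj4, and overlap the controls for Kcne1.

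Summed over the 94 members, channel mRNA stood at 364, 405 and 458 CPM in knockouts and at 775, 744 and 855 CPM in controls. Every knockout sum lay below every control sum. As a share of counts outside the mitochondrial features, the members took 0.0711, 0.0784 and 0.0911% in knockouts against 0.142, 0.137 and 0.147% in controls without overlap. As a share of all counts, mitochondrial features included, they took 0.0474, 0.0512 and 0.0577% in knockouts against 0.0721, 0.0533 and 0.0611% in controls, where knockout 3 lay above control 2 and the groups overlapped.

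By family, the voltage-gated alpha subunits had 15 tested members, of which 8 fell, 0 rose and 7 passed in neither direction, and their median was -0.52 (log2). Among 8 tested inward rectifiers 4 fell and 1 rose, with a median of -0.56. Of 3 tested background channel genes of the Kcnk family 1 was lower, with a median of -1.02. The 5 tested accessory subunit genes had 1 lower and 1 higher, with a median of 0.21, and the 5 tested calcium- or sodium-activated channel genes had 2 lower and 0 higher, with a median of 0.04. Values of members that were not called ran from -1.19 to 0.51.

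**Figure D2:**
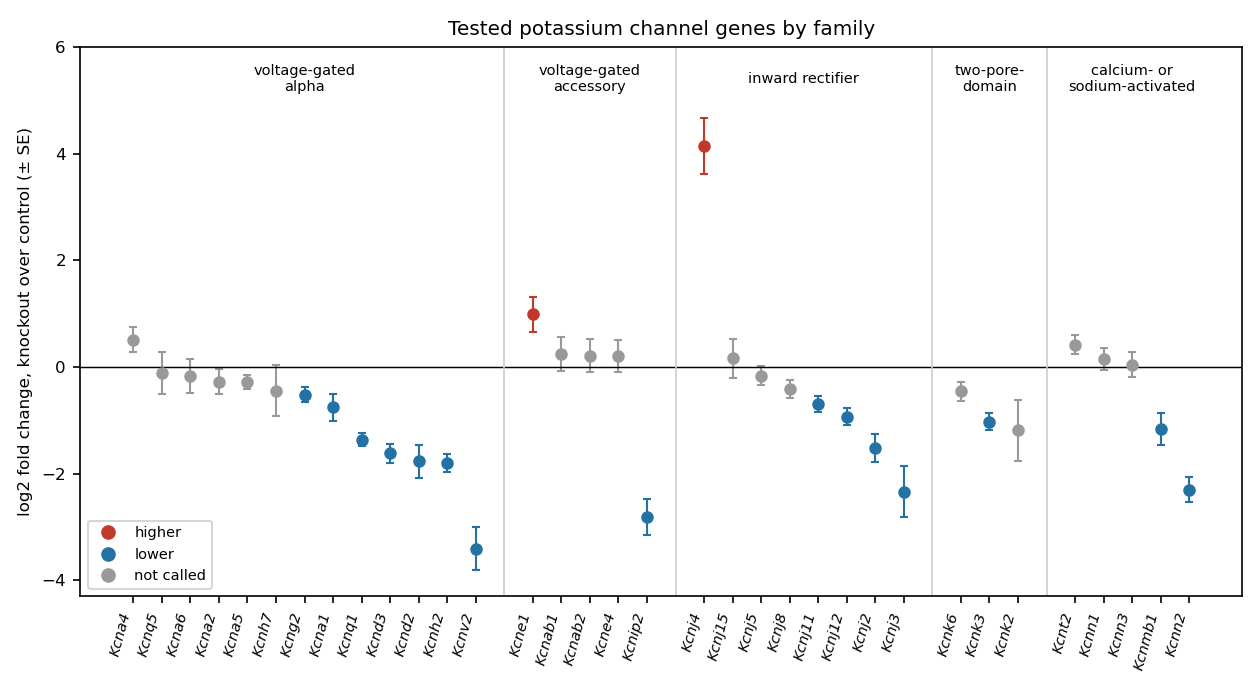
log2 fold change of knockout over control, with its SE, for 34 of the 36 tested members by family, coloured by call. Most alpha subunits and inward rectifiers lie below 0, Kcnj4 stands alone at 4.14, and Kcnip2 and Kcnv2 lie at -2.82 and -3.41.

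The genes of the classical inward rectifier current went in opposite directions. Kcnj2 encodes the main ventricular pore subunit that clamps the resting potential near the potassium equilibrium. Its level was 11.4, 19.9 and 26.4 CPM in knockouts, against 57.9, 62.8 and 43.8 CPM in controls. The groups did not overlap, and the lowest control was above the highest knockout, with a log2 fold change of -1.53 (SE 0.26, edgeR adjusted p = 1.69e-03). Kcnj12, which encodes a partner subunit of the same current, was at 7.48, 9.99 and 10.5 CPM in knockouts and at 17.4, 17.7 and 18.1 CPM in controls. Its log2 value was -0.93 (SE 0.16, edgeR adjusted p = 1.44e-03), or -0.24 with library size alone, where the call was lost (adjusted p = 0.34).

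Kcnj4 (ENSMUSG00000044216.6, chromosome 15, 79483714 to 79505241 in mm10), a further inward rectifier of the same subfamily that is best known from brain, was the tested member with the highest fold change. Its level was 1.91, 1.86 and 1.85 CPM in knockouts, from 36, 32 and 23 reads, and 0.0752, 0.222 and 0 CPM in controls, from 1, 2 and 0 reads. All 3 knockouts lay above all controls and close to each other. The fitted log2 fold change was 4.14 (SE 0.53, edgeR adjusted p = 3.33e-04), and 5.12 without control 2. From 91 reads in knockouts and 3 in controls, the ratio on TMM-scaled library sizes was 19.3. Its exact 95% interval, which covers counting error only, was 6.41 to 95.5. Kcnj14, the remaining member of this subfamily, had 22, 9 and 1 reads in knockouts and 0, 0 and 2 in controls and did not pass the low-count filter. The groups overlapped in Kcnj14, and a near-identical gene, Gm5522, matched it at 99.1% over 1242 bases but had no counts.

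Per kilobase of exonic length, Kcnj4 made up 11.7 ± 3.42% of the summed level of Kcnj2, Kcnj4 and Kcnj12 in knockouts, against 0.259 ± 0.290% in controls (SD, n = 3 each). The share of Kcnj2 was 44.1 ± 7.19% in knockouts and 60.5 ± 4.81% in controls, and that of Kcnj12 was 44.1 ± 3.92% in knockouts and 39.3 ± 5.06% in controls. The groups overlapped in the share of Kcnj12 and not in the other shares. These are shares of mRNA per length, not of channel protein. Neuron and Schwann cell markers, another place where Kcnj4 is known, summed to 44.1 to 53.0 CPM in knockouts and 7.67 to 10.8 CPM in controls. Most of the knockout sum was Uchl1, at 39.1 to 47.6 CPM in knockouts and 2.21 to 3.0003 CPM in controls. Without Uchl1 the markers summed to 4.99 to 6.04 CPM in knockouts and 5.46 to 8.43 CPM in controls, with overlap. Of the 4 tested markers Uchl1 was called higher and Dbh lower, with a median log2 fold change of 0.09, and their part in the Kcnj4 result was not tested.

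**Figure D3:**
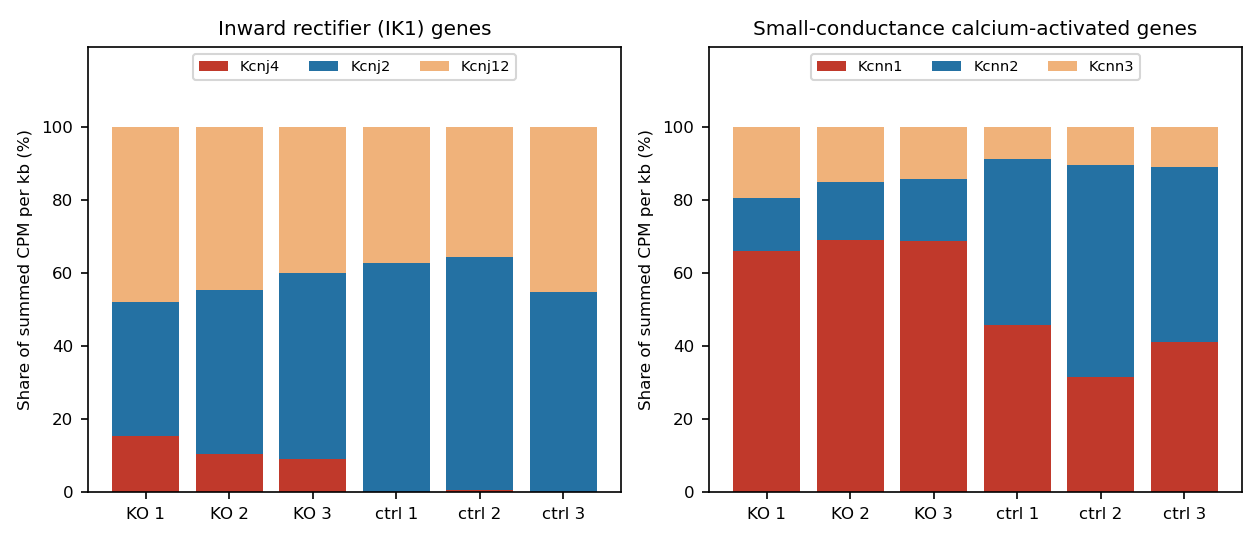
Share of the summed level per kilobase, in percent, taken by each gene of a current in each library, knockouts (KO) left of controls (ctrl). Kcnj4 takes 9.04 to 15.6% of the inward rectifier sum in knockouts and at most 0.572% in controls, and Kcnn2 takes 14.6 to 17.2% of the small-conductance sum in knockouts and 45.7 to 58.1% in controls.

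Genes of the fast transient outward current were lower, each without overlap of the groups. Kcnip2 (ENSMUSG00000025221.15, chromosome 19, 45791839 to 45816061), whose product binds Kcnd channels and carries them to the membrane, was at 4.30, 9.06 and 14.98 CPM in knockouts, against 57.7, 68.2 and 70.6 CPM in controls. Even the highest knockout was far below the lowest control. The mean was 9.44 ± 5.35 CPM in knockouts and 65.5 ± 6.87 CPM in controls (SD, n = 3 each), and the log2 fold change was -2.82 (SE 0.34, edgeR adjusted p = 2.35e-04).

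Kcnd2 and Kcnd3 encode the alpha subunits of this current. Kcnd2 was at 2.60, 5.98 and 7.89 CPM in knockouts and at 16.7, 17.1 and 21.5 CPM in controls, a log2 fold change of -1.77 (SE 0.31, edgeR adjusted p = 2.03e-03). Kcnd3 was at 4.56, 6.15 and 7.25 CPM in knockouts and at 19.3, 18.1 and 17.2 CPM in controls, a log2 fold change of -1.62 (SE 0.18, edgeR adjusted p = 1.48e-04). In Kcnip2, Kcnd2 and Kcnd3 alike, knockout 1 was the lowest library and knockout 3 the highest of the knockouts.

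Kcna4, the alpha subunit of the slowly recovering transient outward current, was at 4.67, 7.03 and 5.96 CPM in knockouts, against 5.04, 4.11 and 3.02 CPM in controls. Its groups overlapped and it was not called (log2 fold change 0.51, SE 0.24, edgeR adjusted p = 0.119). It was called higher without knockout 1 (0.66, adjusted p = 0.0412) and with library size alone (1.18, adjusted p = 9.01e-04). Of the summed level per kilobase of Kcnd2, Kcnd3 and Kcna4, Kcna4 took 43.1 ± 7.42% in knockouts and 13.4 ± 3.59% in controls, while Kcnd2 took 35.0 ± 8.81% in knockouts and 56.5 ± 6.09% in controls (SD, n = 3 each). The membrane proteins Dpp6 and Dpp10, which form part of Kcnd channel complexes elsewhere, had no reads in any library.

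The delayed rectifier currents had 8 tested genes, of which 4 fell, 1 rose and 3 were not called. Kcnh2 (ENSMUSG00000038319.14, chromosome 5, 24319589 to 24351604), the pore subunit of the rapid component, was at 9.61, 11.2 and 14.7 CPM in knockouts, against 37.8, 37.1 and 48.3 CPM in controls. Kcnq1, the pore subunit of the slow component, was at 11.9, 12.2 and 11.5 CPM in knockouts, against 32.2, 27.9 and 31.8 CPM in controls. Neither gene showed overlap of the groups. The log2 fold change of Kcnh2 was -1.80 (SE 0.17, edgeR adjusted p = 7.24e-05), and that of Kcnq1 was -1.37 (SE 0.12, edgeR adjusted p = 4.16e-05). Kcnq1 overlaps the antisense RNA Kcnq1ot1 over 121 bases, 3.0% of its exonic length. Kcnq1ot1 had 9076 counts over the 6 libraries against 1530 for Kcnq1, and reads of the pair cannot be told apart where counting ignored strand.

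Kcne1, the accessory subunit that slows Kcnq1 channels, went the other way. Its level was 15.9, 19.97 and 32.0 CPM in knockouts and 9.25, 7.67 and 17.5 CPM in controls. Knockout 1 lay below control 3, so the groups overlapped. The mean was 22.6 ± 8.39 CPM in knockouts and 11.5 ± 5.30 CPM in controls (SD, n = 3 each), with a log2 fold change of 0.98 (SE 0.32, edgeR adjusted p = 0.0376). The call was lost without knockout 2 (adjusted p = 0.0641), knockout 3 (adjusted p = 0.111), control 1 (adjusted p = 0.137) or control 2 (adjusted p = 0.129), without control 2 and knockout 2 together (adjusted p = 0.178), and with a robust fit (adjusted p = 0.0854). Its value was 0.66 without knockout 3.

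Kcna5, the alpha subunit of the ultrarapid current, was at 18.7, 18.5 and 21.5 CPM in knockouts and at 26.3, 22.2 and 22.7 CPM in controls. Its groups were apart by a narrow margin, and it was not called (log2 fold change -0.28, SE 0.13, edgeR adjusted p = 0.107).

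The remaining Kcna genes of this list, known mainly from neurons, were low. Kcna1 was at 2.28, 1.80 and 2.496 CPM in knockouts and at 4.21, 4.0005 and 2.79 CPM in controls, a log2 fold change of -0.76 (SE 0.25, edgeR adjusted p = 0.0368). The Kcna1 call was lost without knockout 2 (adjusted p = 0.13), control 1 (adjusted p = 0.139) or control 2 (adjusted p = 0.118), without control 2 and knockout 2 together (adjusted p = 0.284), with DESeq2 (adjusted p = 0.116) and with the replicate block (adjusted p = 0.0741). With library size alone the Kcna1 value was -0.08 (adjusted p = 0.829). Kcna2 was at 2.18, 1.92 and 2.82 CPM in knockouts and at 2.63, 2.89 and 2.79 CPM in controls, and Kcna6 at 1.75, 1.45 and 1.29 CPM in knockouts and at 1.81, 2.22 and 1.05 CPM in controls. Both overlapped between groups and neither was called (edgeR adjusted p = 0.396 and 0.698).

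Several modifier alpha subunits, which do not form channels alone but alter other voltage-gated channels, were measured. Kcng2 was at 41.0, 32.4 and 29.4 CPM in knockouts and at 52.1, 44.9 and 50.9 CPM in controls. The groups did not overlap, and the log2 fold change was -0.52 (SE 0.14, edgeR adjusted p = 0.0158), and library size alone put it at 0.17 (adjusted p = 0.489). The Kcng2 call was lost without knockout 2 (adjusted p = 0.0681), knockout 3 (adjusted p = 0.0562), control 1 (adjusted p = 0.07) or control 3 (adjusted p = 0.0615), and without control 2 and knockout 2 together (adjusted p = 0.115). Kcnv2 was at 0.265, 0.290 and 0.886 CPM in knockouts, against 4.51, 4.0005 and 5.92 CPM in controls. With 21 reads in knockouts and 147 in controls, its log2 fold change was -3.41 (SE 0.40, edgeR adjusted p = 2.11e-04), or -4.06 without knockout 3. Kcnv2 had the largest fall of the tested members.

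Of the pore subunits of the ATP-sensitive channel, which opens when ATP runs low, Kcnj11 was lower and Kcnj8 was not called. Kcnj11, the subunit of cardiomyocytes, was at 25.0, 36.7 and 34.1 CPM in knockouts and at 55.4, 51.9 and 47.6 CPM in controls. The groups did not overlap (log2 fold change -0.70, SE 0.15, edgeR adjusted p = 5.64e-03), but with library size alone its value was -0.01 (adjusted p = 0.965). Kcnj8, the subunit of vascular smooth muscle and pericytes, was at 14.9, 17.9997 and 13.0 CPM in knockouts and at 21.4, 23.1 and 16.8 CPM in controls, with overlap (log2 fold change -0.42, SE 0.17, edgeR adjusted p = 0.0744). Without control 3 it was called lower at -0.53 (adjusted p = 0.0413). Smooth muscle and pericyte markers summed to 1796 to 2510 CPM in knockouts and 1451 to 1673 CPM in controls. Without Des, which cardiomyocytes also express, they summed to 613 to 748 CPM in knockouts and 878 to 1117 CPM in controls. The list's median log2 fold change was 0.02, with 3 of 10 called higher and 2 lower, or 5 higher without knockout 3 and 1 lower without any 1 of knockout 2, knockout 3, control 1 or control 2. Their part in the Kcnj8 value was not tested.

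The sulfonylurea receptors complete these channels. Abcc9, the receptor of vascular and ventricular channels, was at 111, 152 and 188 CPM in knockouts, against 318, 356 and 322 CPM in controls. All knockouts were below all controls, with a log2 fold change of -1.14 (edgeR adjusted p = 1.12e-03). On library size alone it was -0.45 (adjusted p = 0.087). Abcc8, the receptor of mouse atrial channels, was at 22.4, 27.7 and 27.9 CPM in knockouts and at 34.5, 29.7 and 42.6 CPM in controls. Its log2 fold change was -0.45 (edgeR adjusted p = 0.042), a call lost without each library in turn other than control 2, with adjusted p from 0.0541 to 0.146.

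The acetylcholine-activated channel, which slows the heartbeat under vagal drive, is built from Kcnj3 and Kcnj5 and is richest in atria and the sinoatrial node. Kcnj3 (ENSMUSG00000026824.11, chromosome 2, 55435970 to 55598145) was at 6.00, 10.04 and 30.4 CPM in knockouts, against 85.2, 57.2 and 87.3 CPM in controls. Knockout 3 stood well above the other knockouts and still below every control. The mean was 15.5 ± 13.1 CPM in knockouts and 76.6 ± 16.8 CPM in controls (SD, n = 3 each). The log2 fold change was -2.34 (SE 0.47, edgeR adjusted p = 4.03e-03), and -3.26 without knockout 3 (adjusted p = 2.91e-05). The call was kept only narrowly with a robust fit (adjusted p = 0.0498). It was weaker without control 2 and knockout 2 together (adjusted p = 0.0371) and without knockout 2 (adjusted p = 0.0224).

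Kcnj5 was at 36.5, 49.0 and 58.3 CPM in knockouts and at 58.5, 44.7 and 58.0 CPM in controls. Its groups overlapped and it was not called (log2 fold change -0.17, SE 0.18, edgeR adjusted p = 0.486), but with library size alone it was called higher at 0.51 (adjusted p = 0.0444). Kcnj3 thus made up 20.1 ± 10.3% of the summed level per kilobase of the pair in knockouts, against 55.9 ± 2.12% in controls (SD, n = 3 each).

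Atrial genes varied between libraries of a group, which bears on Kcnj3. Bmp10, an atrial marker, was at 146, 7.37 and 84.8 CPM in knockouts and at 115, 0.444 and 186 CPM in controls. Myl7, the atrial light chain, was at 87.5, 65.4 and 132 CPM in knockouts and at 245.4, 68.5 and 202.9 CPM in controls. Knockout 2 and control 2 were the lowest of their groups in both. In the other libraries Myl7 was lower in knockouts than in controls, while Bmp10 overlapped between the groups. Of the 10 atrial markers 1, Nppa, was called higher and 3 were called lower, or 5 lower without control 2 and 0 lower with library size alone. The list's median log2 fold change was -0.60. The list summed to 3419 to 4884 CPM in knockouts and 393 to 1577 CPM in controls, a difference carried by Nppa, which was at 2945 to 4577 CPM in knockouts and 193 to 811 CPM in controls. Without Nppa the sums were 307 to 504 CPM in knockouts and 200.02 to 766 CPM in controls, and overlapped. The part of these genes in the Kcnj3 result was not tested. Markers of the sinoatrial node and conduction system summed to 29.7 to 38.2 CPM in knockouts and 53.4 to 64.7 CPM in controls, with 3 of 7 tested markers called lower, or 1 without control 2 and knockout 2 together. Their part was not tested either.

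**Figure D4:**
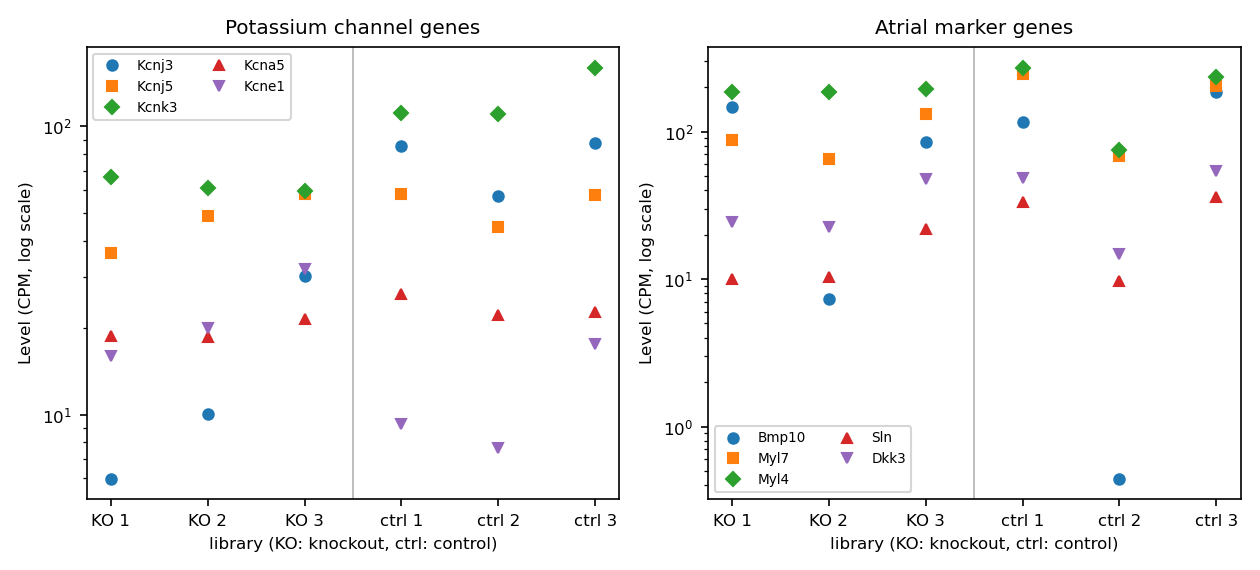
Levels in CPM on a log axis of acetylcholine-activated and other channel genes and of atrial markers in each library, knockouts (KO) left of controls (ctrl). Bmp10 drops in library 2 of both groups, to 7.37 CPM in knockout 2 and 0.444 CPM in control 2. Kcnj3 is lower in all 3 knockouts than in any control.

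Background channels set a resting leak of potassium. Kcnk3, an acid-sensitive channel and the member with the highest level per length in both groups, was at 66.5, 61.0 and 59.9 CPM in knockouts, against 111, 110 and 160 CPM in controls. The knockouts lay close together and below all controls, with a log2 fold change of -1.02 (SE 0.16, edgeR adjusted p = 9.73e-04). On library size alone it was -0.31 (adjusted p = 0.189). Kcnk3 overlaps the transcript Gm9899 on the other strand, which had 785 counts against 6897 for Kcnk3. Kcnd3, Kcng2 and Kcnj3, also called, overlap transcripts on the other strand with 21, 192 and 10 counts.

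Kcnk6 was at 3.82, 3.95 and 4.43 CPM in knockouts and at 6.09, 5.56 and 4.99 CPM in controls, without overlap, and was not called (log2 fold change -0.46, SE 0.18, edgeR adjusted p = 0.072), but was called lower at -0.49 with the stricter filter of 50 counts in 3 libraries (adjusted p = 0.0425). Kcnk2, a stretch-sensitive channel, was at 1.17, 0.232 and 0.241 CPM in knockouts and at 1.053, 1.89 and 1.162 CPM in controls. Knockout 1 lay within the controls while the other knockouts lay below them. The log2 fold change was -1.19 (SE 0.57, edgeR adjusted p = 0.13), and -2.45 without knockout 1, where the gene was called lower (adjusted p = 3.42e-03).

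Of the small-conductance calcium-activated channels, only Kcnn2 was called among the 3 tested. It was at 1.70, 2.497 and 2.82 CPM in knockouts, against 9.18, 13.3 and 11.8 CPM in controls. The groups were far apart, with a log2 fold change of -2.30 (SE 0.23, edgeR adjusted p = 9.02e-05). Kcnn1 was at 4.72, 6.62 and 6.92 CPM in knockouts and at 5.64, 4.44 and 6.27 CPM in controls, and Kcnn3 at 3.13, 3.25 and 3.22 CPM in knockouts and at 2.41, 3.33 and 3.72 CPM in controls. Both overlapped between groups and were not called (edgeR adjusted p = 0.614 and 0.902), though with library size alone both were called higher, Kcnn1 at 0.84 and Kcnn3 at 0.75 (adjusted p = 6.49e-03 and 0.0214). Kcnn2 took 15.9 ± 1.29% of the summed level per kilobase of the 3 genes in knockouts and 50.6 ± 6.61% in controls, and Kcnn1 took 68.0 ± 1.62% in knockouts and 39.5 ± 7.27% in controls (SD, n = 3 each).

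Kcnmb1, the smooth muscle subunit of the large-conductance channel, was at 1.11, 0.755 and 0.725 CPM in knockouts and at 2.33, 1.67 and 1.86 CPM in controls. The groups did not overlap, and the log2 fold change was -1.16 (SE 0.31, edgeR adjusted p = 0.0148), a call lost without knockout 2 (adjusted p = 0.0622), without control 1 (adjusted p = 0.0756), without control 2 and knockout 2 together (adjusted p = 0.0988) and with DESeq2 (adjusted p = 0.0676). With library size alone the Kcnmb1 value was -0.49 (adjusted p = 0.263). The pore gene of that channel, Kcnma1, had 31 reads in knockouts and 6 in controls and did not pass the filter. Kcnt2, a sodium-activated channel gene, was not called at 0.41 (edgeR adjusted p = 0.0943). Without knockout 1 it was called higher at 0.53 (adjusted p = 0.0282), and with library size alone at 1.12 (adjusted p = 1.57e-04).

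The other tested members named here were low and not called. Kcne4, Kcnj15, Kcnab1 and Kcnab2 had log2 fold changes of 0.16 to 0.24, Kcnq5 of -0.11 and Kcnh7 of -0.45. With library size alone Kcnab1, Kcnab2 and Kcne4 were called higher, at 0.91, 0.90 and 0.87 (adjusted p = 0.0351, 0.0398 and 0.0261). Of the 10 reported members that did not pass the filter, the groups overlapped in 6. Without a filter 21 of the 46 members were called, 3 higher and 18 lower, against 22.6% of all genes in either direction, 11.8% higher and 10.8% lower. The additional calls were Kcnj14, with a log2 fold change of 3.14, and Kcnk2 and Kcnc2, with -1.15 and -1.45. None of these was called in the authors' deposited comparison (DESeq2 adjusted p = 0.0828, 0.174 and 0.105). The fitted SE could be much smaller without the filter, as for Kcnj3, at 0.15 against 0.47 with it. The ratio for Kcnj14 on TMM-scaled library sizes was 10.2, with an exact 95% interval of 2.60 to 87.8 that covers counting error only.

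Measured per kilobase, the order of levels among the members differed between the groups. In knockouts Kcnk3 came first at 15.7 CPM per kilobase, followed by Kcng2 at 11.5, Kcnj5 at 10.2, Kcnj11 at 8.69, Kcne1 at 7.05 and Kcna5 at 6.84. In controls Kcnk3 came first at 32.0 CPM per kilobase, followed by Kcnip2 at 18.8, Kcng2 at 16.5, Kcnj3 at 14.7, Kcnj11 at 14.0 and Kcnj5 at 11.5. Kcnip2 ranked 12 of the 46 in knockouts and 2 in controls, Kcnj3 ranked 10 in knockouts and 4 in controls, and Kcne1 ranked 5 in knockouts and 15 in controls. Many neighbours in these orders lie within their SDs of each other, such as Kcng2 (11.5 ± 2.01) and Kcnj5 (10.2 ± 2.34 CPM per kilobase) in knockouts, and Kcnj3 (14.7 ± 3.22) and Kcnj11 (14.0 ± 1.06 CPM per kilobase) in controls.

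**Figure D5:**
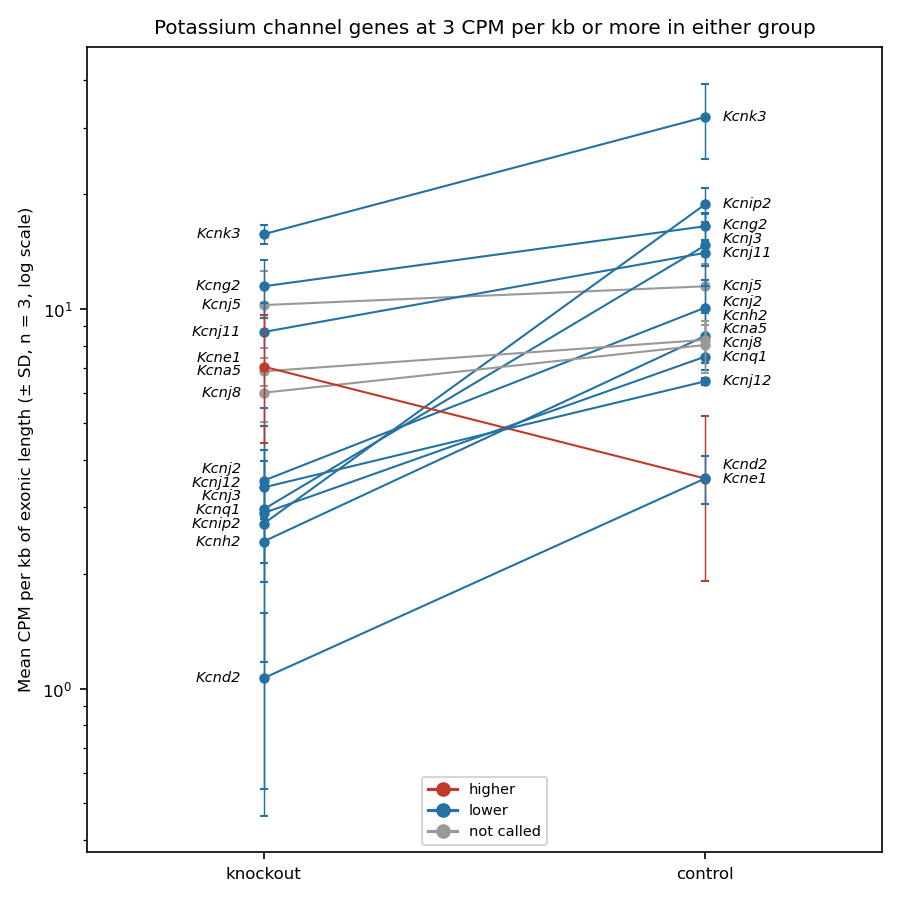
Mean level per kilobase of exonic length (CPM per kb, log axis, SD over 3 libraries) of potassium channel genes that reach 3 CPM per kb in either group, knockout at left and control at right, with a line joining the means of each gene. The Kcnip2 and Kcnj3 lines show the widest gaps, 2.72 against 18.8 and 2.97 against 14.7 CPM per kb, while Kcne1 is higher in knockouts.

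The knockouts also differed among themselves. Of the 16 members called lower, knockout 1 was the lowest of the knockouts in 10 and knockout 3 the highest in 10. Knockout 1 was the highest in 4 and knockout 3 the lowest in 5. Fibroblast markers summed to 3408, 2702 and 2374 CPM in knockouts 1, 2 and 3 and to 2525, 2321 and 1702 CPM in controls, and their part in these values was not tested.

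Other genes of potassium transport were compared as lists. Beside them, 17.8% of all tested genes were called lower and 18.7% higher, with a median of -0.01. Of 14 listed proteins that form or join potassium channels without a Kcn symbol, 9 were tested and 6 were lower, with 0 higher and a median of -0.56, or 3 lower without control 2 and knockout 2 together and 1 lower and 2 higher with library size alone. Besides the sulfonylurea receptors these include Tmem38a, a potassium-permeable channel of the sarcoplasmic reticulum, at -1.02, and Lrrc52, an auxiliary subunit of large potassium channels, at -3.54. Without knockout 1 a gene of this list was called higher as well. Of 8 tested sodium-potassium pump genes, which return potassium to the cell, 3 were lower, among them the regulator Fxyd1 at -0.50, and 1 was higher, Fxyd6 at 0.71, with a median of -0.25. With library size alone the pump list had 0 lower and 4 higher.

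Proteins that anchor or carry cardiac potassium channels had 2 of 11 tested members lower and 1 higher, with a median of -0.15. Over all tested genes 17.8% were lower and 18.7% higher, so this list had no excess of higher members and a lower share near that of all genes. The scaffold Ank2 was at -1.18 and Ank3 at -0.72, and the syntrophin Sntb1 was the higher one at 0.70. Without knockout 1, 4 members were lower, without control 1 none was higher, and with library size alone 1 was lower and 5 were higher. Transcription factors known to act on cardiac potassium channel genes had 6 of 13 tested members lower and 0 higher, with a median of -0.28, including Etv1 at -1.01, Mef2d at -0.73, Tbx5 at -1.27 and Tbx3 at -1.15. With library size alone 0 of them were lower and 4 were higher, and 2 were lower without control 2 and knockout 2 together.

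Set beside the authors' deposited table, in which 16 of the 46 members had an adjusted p under 0.05, all 16 were also called with edgeR, in the same direction. That table rests on the same 6 libraries, so it gives no independent support. Of the 16, 14 were lower and 2 higher. Over all genes with an adjusted p there, 4484 of 16267 were under 0.05, with 2132 lower and 2352 higher. Kcna1 and Kcnmb1, called lower with edgeR, were not called there (DESeq2 adjusted p = 0.116 and 0.0676).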

How the data were processed

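RNA of 6 whole mouse hearts was sequenced, 3 knockout and 3 control, grouped by sample title. Per the series design the hearts are of separate mice, each sequenced with technical replicates, and the authors deposited 1 column of whole-number counts per gene and mouse, without normalisation. The submitters' processing notes name build mm10, HISAT2 (2.0.5), featureCounts (1.5.1), SAMtools (1.5) and DESeq2 (1.16.1), without options. No source used here says if strand was used in counting, so reads where genes overlap are of uncertain origin. The authors' deposited comparison table gives log2 fold changes and adjusted p-values.

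The deposited counts went unchanged into edgeR (4.0.16, R 4.3.3), where glmQLFTest, its quasi-likelihood test, was run after TMM scaling and filterByExpr (minimum count 10), without a block. Benjamini-Hochberg adjustment ran over all 14302 tested genes, and a gene was called at an adjusted p under 0.05. CPM uses TMM-scaled library sizes, and per-kilobase levels divide it by the exonic length in GENCODE M21. Shares of a current's summed level have no test. Replicates differed by more than sampling noise (chi-square over degrees of freedom no lower than 8.85), so each mouse counted once. Counts were also simulated for the knockout against control comparison over 14005 genes, with 200 genes set to change, 50 at each fold. There the test recovered 12% of genes changed 1.5-fold, 76% at 2-fold, 90% at 4-fold and 98% at 8-fold. It called 14 of 13809 unchanged genes. In the real comparison 36.5% of tested genes were called. Benjamini-Hochberg adjustment is harsher where few genes change, so the simulated recovery and false calls cannot be read as rates for the real comparison.

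The members, the gene lists and the marker lists were chosen with earlier results of these data known. Each member with at least 30 counts could be named. Values in every library were given for those in the cardiac current lists and for called members whose higher group averaged 1 CPM or more; from other lists at most 4 called genes with the smallest adjusted p were named, plus Abcc8, Abcc9, Dpp6 and Dpp10. The atrial markers Bmp10 and Myl7 were chosen after their values were seen. A few genes, and coding letters of some members, are not reported here, though counts over the members include those genes. Promoter letters came from RefSeq (GRCm38.p6) and coding letters from GENCODE M21 transcripts, compared with blastn 2.17.0; coding bases were printed where protein stretches had been planned. Settings tried besides were library size alone, RLE scaling, TMM leaving out the 13 mitochondrial features, no filter, a filter of 50 counts in 3 libraries, a robust fit, DESeq2 1.42.0, limma-voom (limma 3.58.1), leaving out libraries, a replicate block and other thresholds.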

Additional observations from a re-analysis of the deposited data

How the results depend on the processing

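The total of 18 called members stayed within 1.5 times under all alternatives. The count of members called higher, 2, was 11 with library size alone and 1 with the stricter filter, a robust fit, an adjusted p under 0.01, a log2 fold change of at least 1, members with at least 100 counts, and without control 2 and knockout 2 together. The count called lower, 16, was 10 with library size alone. With any 1 library left out, 14 to 21 members were called, 1 to 4 higher and 13 to 17 lower, as were 3694 to 5837 of all genes, 1899 to 2903 higher and 1795 to 2934 lower. All genes called numbered 8645 (8093 higher, 552 lower) with library size alone, 2056 (1042 and 1014) without control 2 and knockout 2 together, 3006 (1591 and 1415) at an adjusted p under 0.01, and 1938 (898 and 1040) at a log2 fold change of at least 1; the cause was not tested. With the replicate number as a block 17 members were called, 2 higher and 15 lower. The labels do not say that the numbers pair mice, and the correlations of deviations between libraries of equal number were -0.234, 0.102 and -0.118. Directions that turned with library size alone were those of Kcna2 (0.42), Kcna5 (0.40), Kcna6 (0.51), Kcng2 (0.17), Kcnh7 (0.23), Kcnj5 (0.51), Kcnj8 (0.27), Kcnk6 (0.22), Kcnq5 (0.58) and Abcc8 (0.24). Without control 2 and knockout 2 together those of Kcna6 (0.070), Kcne4 (-0.099), Kcnj15 (-0.11), Kcnn1 (-0.039) and Kcnq5 (0.40) turned. With any 1 library left out, Kcna6 ran from -0.39 to 0.048, Kcnab2 from -0.056 to 0.33, Kcnj15 from -0.12 to 0.40, Kcnn3 from -0.13 to 0.18 and Kcnq5 from -0.48 to 0.26. Over the members named and their alternatives 501 values kept direction and call, 29 lost a call, 14 gained one and 22 changed sign; of the last, 1 also lost a call and 1 gained one. Kcnd2, Kcnd3, Kcnh2, Kcnip2, Kcnj2, Kcnj3, Kcnj4, Kcnn2, Kcnq1 and Kcnv2 kept their calls in every alternative in which they were tested. Depth limits the 10 reported members that did not pass the low-count filter.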
